A study of Bos taurus with 147 samples.

Results

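ACACA, ACLY, SCD and DGAT2 are enzymes of fatty acid and triglyceride synthesis, and their mRNA was followed in bovine longissimus muscle from d 60 of gestation to birth and in later crossbred and Belmont Red muscle. The 4 genes were chosen by gene symbol, as 4 of the 976 genes whose array elements carried a single symbol. Each was represented by 2 elements of the same cDNA sequence, and these were averaged. All 4 passed the filter that a gene had a value on at least 0.8 of the arrays of an experiment. Other elements may carry the same genes without a name, since 4490 of the 21168 elements had a single symbol.

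Fatty acids are built in the cytosol from acetyl-CoA. ATP citrate lyase (ACLY) releases acetyl-CoA from citrate, acetyl-CoA carboxylase alpha (ACACA) turns it into the malonyl-CoA that fatty acid synthase elongates, stearoyl-CoA desaturase (SCD) puts a double bond into the saturated product, and diacylglycerol O-acyltransferase (DGAT2) adds the last acyl group of a triglyceride. In cattle the adipocyte is the main site of this pathway, and adipocytes lying between muscle fibres form marbling fat, for which Wagyu cattle are known.

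Fetuses and newborn calves were from Hereford dams mated to Piedmontese sires (PxH) or Wagyu sires (WxH), and muscle was taken at birth and at 3 fetal ages, d 60, d 135 and d 195. All Piedmontese sires were homozygous for a missense mutation of GDF8, the gene for myostatin, and no Wagyu sire carried it. There were 3 animals in each of the 8 groups, joined in a loop by 25 arrays with a different RNA in Cy5 and Cy3, and all RNA was linearly amplified. A single bull of each breed sired all d 60 fetuses. The Wagyu bull also sired all WxH d 135 fetuses, and another bull sired all PxH d 195 fetuses. The newborn calves were all female, and a pair of PxH d 195 fetuses were twins. The muscle at d 60 was hard to separate from the overlying skin. The authors propose that amplification may have biased a PxH sample of that earliest stage. For these reasons their discussion of differential expression kept to the later stages. Changes from d 60 in the results below rest on these samples, and the part of such bias in them was not tested. A further 20 arrays of the same table compared later PxH and WxH muscle at T1, T2 and T3, and 24 arrays compared 12 pools of Belmont Red muscle on a growth diet or a low diet at T1, T2 and T3. The length of T1 to T3 and the treatment of the crossbred animals are not given in the sources used here, nor is the number of animals in a pool.

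Each value is a log2 ratio of Cy5 over Cy3, turned to later over earlier stage, PxH over WxH or growth over low diet, after the median of the array was subtracted. The direction of the ratio is likely rather than stated, from the dyes in the labels and the arrows of the study's design drawing. With that direction all 15 measured muscle fibre markers stood above their d 60 level at birth, and all 9 measured fibroblast and matrix markers stood below it. The fetal arrays held 19404 to 20771 usable elements and the crossbred arrays 20794 to 20946. Replicate arrays of a fetal link correlated with a median r of 0.49 across elements, and those of a later crossbred link with a median r of 0.14 (lowest -0.58, between arrays of opposite dyes). On a single array of PxH T1 RNA against itself, the log2 ratio was -0.32 for ACACA, -0.12 for ACLY, 0.08 for SCD and 0.61 for DGAT2, which shows how far a single array strayed with the same RNA in both channels. Errors after ± are standard errors of the limma fit over all arrays of an experiment, and p-values were adjusted by Benjamini-Hochberg over all features tested (threshold 0.05). The labels do not tie array numbers to animals. Each fetal group held 3 animals and was on more than 3 arrays, so that fetal animals were on more than 1 array. Later crossbred animals may be too. The fetal and crossbred fits took arrays as independent, so that p-values may be too small. None of the listed epidermis or blood markers was measured.

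From d 60 to birth, ACACA, ACLY and SCD fell on the mean of the breeds and DGAT2 did not pass the test. In the same comparison 25.6% of the 16659 features tested were called lower and 48.2% were called in either direction. The median log2 ratio of the 4 enzymes was -2.06, against -0.07 over all features. ACACA fell 7.16-fold (log2 ratio -2.84 ± 0.24, adjusted p = 6.25e-09), ACLY 5.28-fold (-2.40 ± 0.19, adjusted p = 2.39e-09) and SCD 3.31-fold (-1.73 ± 0.41, adjusted p = 0.00158). For DGAT2 the log2 ratio was 0.28 ± 0.47 (95% confidence interval -0.70 to 1.26, adjusted p = 0.631). The muscle fibre markers moved the other way over the same stages, with 15 of 15 called higher and a median of 2.67, and 9 of 9 matrix markers were called lower, with a median of -2.98. In whole tissue, fewer cells of a type and less RNA per cell cannot be told apart, and the part of the tissue make-up in the fall of the 3 enzymes was not tested.

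**Figure D1:**
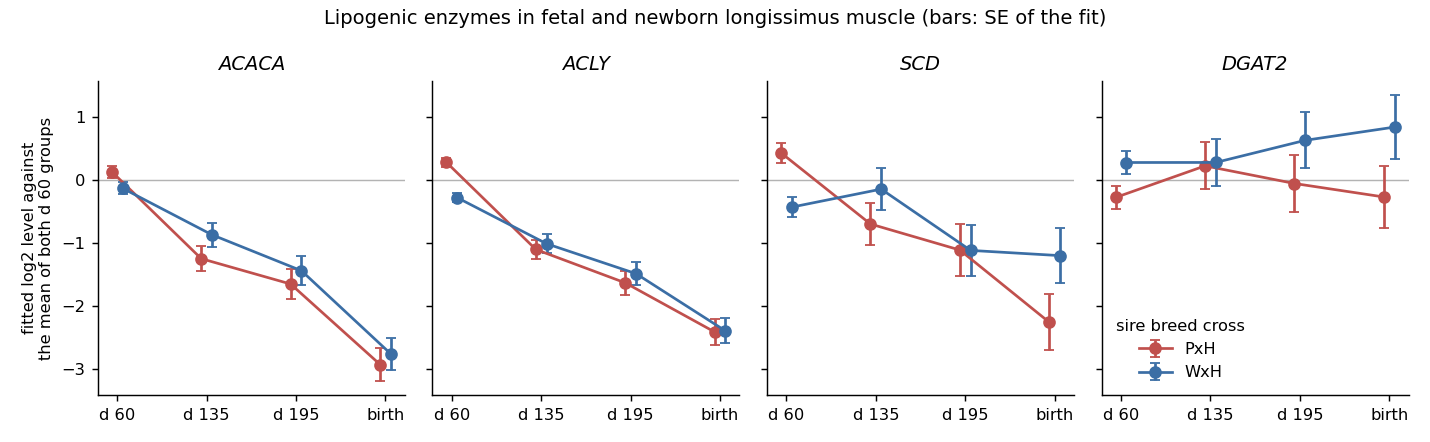
Fitted log2 level of each enzyme at the 3 fetal ages and birth, against the mean of the PxH and WxH d 60 groups, with standard errors as bars and a line for each sire breed cross. ACACA and ACLY stepped down at every stage in both crosses to between -2.92 and -2.39 at birth, SCD ended at -2.26 in PxH and -1.20 in WxH, and DGAT2 stayed within 1 log2 unit of 0.

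ACLY, which releases acetyl-CoA from citrate, was lower at the later stage on every array that joined consecutive stages. From d 60 to d 135 the log2 ratios were -1.11, -1.25 and -1.42 on the PxH arrays and -0.65, -1.28 and -0.63 on the WxH arrays. From d 135 to d 195 they were -0.16, -0.82 and -0.23 in PxH and -0.98, -0.54, -0.51 and -0.36 in WxH, and from d 195 to birth they were -0.76, -0.72 and -0.50 in PxH and -1.08, -0.93 and -1.07 in WxH. The arrays of both crosses therefore lay below 0 at each step. On the mean of the breeds ACLY fell by 1.06 on the log2 scale from d 60 to d 135 (± 0.11, adjusted p = 9.71e-07), by 0.50 from d 135 to d 195 (± 0.10, adjusted p = 0.00201) and by 0.84 from d 195 to birth (± 0.11, adjusted p = 1.85e-06). Of all features, 17.0%, 6.19% and 25.8% were called lower at these 3 steps.

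ACACA, which makes malonyl-CoA and commits acetyl-CoA to fatty acid synthesis, followed ACLY closely. From d 60 to d 135 the PxH arrays gave -1.03, -2.02 and -1.25 and the WxH arrays -0.56, -0.66 and -0.83. Every PxH array lay below every WxH array, but the later stage was in Cy3 in PxH and in Cy5 in WxH. The ACACA difference between the breeds at this step did not pass the test in the main fit, which held a dye effect and called 0.0% of features. It passed in none of 39 alternative settings, 1 of them without the dye effect (lowest limma adjusted p = 0.0839). From d 135 to d 195 the PxH arrays gave -0.60, -1.11 and 0.34 and the WxH arrays -0.53, -0.64, -0.27 and -0.61. From d 195 to birth all 6 arrays lay between -1.39 and -1.04. A single array, of PxH d 195 and d 135, was above 0. The fall on the mean of the breeds was 1.06 on the log2 scale (± 0.14, adjusted p = 1.23e-05), then 0.49 (± 0.13, adjusted p = 0.0145) and then 1.30 (± 0.14, adjusted p = 1.45e-07). The middle step did not pass the test without array number 2 of PxH d 135 and d 195 (log2 ratio -0.32, adjusted p = 0.114) or without array number 1 of that link (-0.45, adjusted p = 0.0578).

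**Figure D2:**
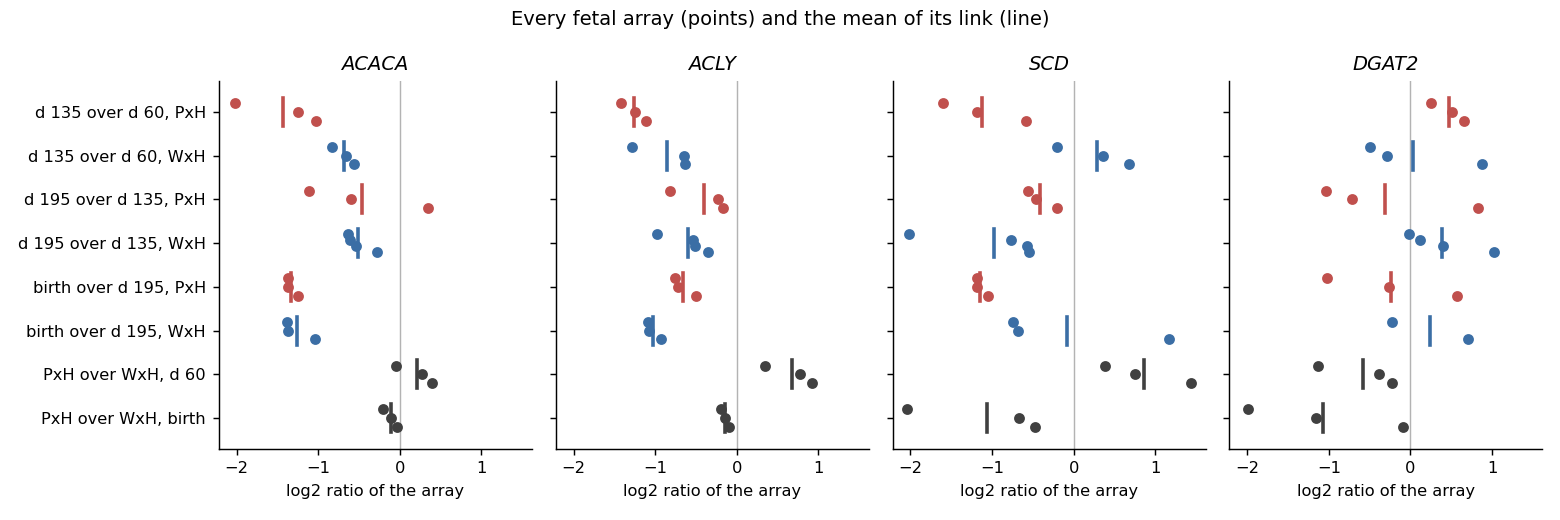
Log2 ratio of each fetal array for each enzyme, by link, where a point is an array, a short line the mean of a link, red PxH, blue WxH and black PxH over WxH, all on 1 horizontal scale. All stage arrays of ACLY lay below 0, and for SCD the array of WxH birth over d 195 at 1.17 and that of WxH d 195 over d 135 at -2.02 lay apart from the others of their links.

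SCD, the desaturase that makes monounsaturated fatty acids, fell from d 60 to birth in PxH muscle and did not pass the test in WxH muscle. In PxH the arrays gave -0.59, -1.19 and -1.60 from d 60 to d 135, -0.46, -0.56 and -0.21 from d 135 to d 195, and -1.19, -1.05 and -1.18 from d 195 to birth. All PxH stage arrays were below 0. In WxH they gave 0.37, -0.21 and 0.68 from d 60 to d 135, -2.02, -0.57, -0.76 and -0.54 from d 135 to d 195, and 1.17, -0.69 and -0.74 from d 195 to birth. The WxH arrays thus lay on either side of 0 at the first and the last step, and 2 arrays that carried WxH d 195 RNA, those with 1.17 and -2.02, lay far from the rest of their links.

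Over the whole period SCD fell 6.43-fold in PxH (log2 ratio -2.69 ± 0.47, adjusted p = 7.15e-05), and in WxH the ratio was -0.77 ± 0.46 (95% confidence interval -1.73 to 0.19, adjusted p = 0.188). Of all features 22.9% were called lower in PxH, and 44.9% were called in either direction in WxH. The difference between the breeds in this change was -1.92 ± 0.42 and passed the test (adjusted p = 0.0120), as did a smaller difference of -0.58 ± 0.19 for ACLY (adjusted p = 0.0478), while for ACACA it was -0.43 ± 0.24 (adjusted p = 0.241) and for DGAT2 -0.55 ± 0.46 (adjusted p = 0.448). Of all features, 7.94% were called with a negative difference. The later stage was labelled with Cy3 on all PxH and with Cy5 on all WxH stage arrays, and the fit held a dye effect for each gene, without which the SCD log2 ratio, birth over d 60, PxH minus WxH, was -1.92 (adjusted p = 0.0111). The ACLY difference was lost in 25 of 39 alternative settings and the SCD difference in 4. The arrays that decided the SCD call were array number 3 of PxH birth and WxH birth (-1.55 without it, adjusted p = 0.0655) and array number 3 of the d 60 groups (-1.70 without it, adjusted p = 0.0534). Without the WxH array at 1.17, the fall of SCD from d 60 to birth in WxH passed the test (log2 ratio -1.16, adjusted p = 0.0274). This was the only 1 of 39 alternative settings in which it passed, and the adjusted p ran up to 0.690. SCD stands in the study's own list of genes that differed between sire breeds, which was made from these fetal arrays, so the difference is not independent of that list.

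Step by step, the SCD contrast between the breeds did not pass the test at any step, in comparisons that called 0.0%, 0.012% and 0.0% of features by limma (1702 features at the first step and 2900 at the last had an unadjusted p under 0.05). From d 60 to d 135 SCD fell by 1.13 on the log2 scale in PxH (± 0.32, adjusted p = 0.0122), and in WxH its log2 ratio was above 0, at 0.29 ± 0.32 (adjusted p = 0.640), with a difference of -1.41 ± 0.42 (adjusted p = 0.0961). In PxH 15.2% of features were called lower at this step, and in WxH 11.8% were called. The PxH fall did not pass without array number 3 (-0.92, adjusted p = 0.109) or 2 (-1.10, adjusted p = 0.0602) of PxH d 60 and d 135. From d 135 to d 195 the PxH ratio was -0.41 ± 0.32 (adjusted p = 0.528) where 4.95% of features were called, and SCD fell by 0.97 in WxH (± 0.29, adjusted p = 0.0393), where 2.46% were called lower. Without the WxH array at -2.02 that ratio was -0.67 (adjusted p = 0.231), and the call was lost in 14 of 40 alternative settings, among them without any other array of the link (adjusted p = 0.0625 to 0.0632) and without array number 2 or 3 of PxH d 60 and d 135 or number 3 of WxH d 60 and d 135 (adjusted p of at most 0.0510). From d 195 to birth it fell by 1.15 in PxH (± 0.32, adjusted p = 0.00751), and in WxH its log2 ratio was -0.08 ± 0.32 (adjusted p = 0.857), with a difference of -1.06 ± 0.42 (adjusted p = 0.226). At this last step 18.9% of features were called lower in PxH and 44.6% were called in WxH. The PxH fall at this step was lost without all arrays numbered 2 (-1.19, adjusted p = 0.0525) or 3 (-1.04, adjusted p = 0.0575). On the mean of the breeds SCD fell by 0.69 from d 135 to d 195 (± 0.23, adjusted p = 0.0418) and by 0.61 from d 195 to birth (± 0.24, adjusted p = 0.0399). The first of these means did not pass without array number 1 (log2 ratio -0.52, adjusted p = 0.138) or 3 (-0.73, adjusted p = 0.0546) of WxH d 195 and d 135, or without any 1 of the 3 PxH arrays of that step (adjusted p = 0.0643 to 0.115). The second did not pass without array number 2 (-0.46, adjusted p = 0.165) or 3 (-0.45, adjusted p = 0.164) of WxH birth and d 195, or without any 1 of the 3 PxH arrays (adjusted p = 0.0650 to 0.0833). Without the arrays of d 60 RNA and without the dye effect, which the open chain of arrays that is left cannot give, neither SCD mean passed (adjusted p = 0.0805 and 0.0634), and the same means of ACACA (adjusted p = 0.0288 and 4.01e-06) and ACLY (0.00553 and 1.82e-05) passed.

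DGAT2, which completes the triglyceride, had no called change over the fetal stages, and its arrays scattered on either side of 0. From d 60 to d 135 they gave 0.25, 0.50 and 0.66 in PxH and 0.88, -0.50 and -0.29 in WxH, and from d 135 to d 195 they gave -0.72, -1.03 and 0.82 in PxH and -0.02, 1.03, 0.12 and 0.39 in WxH. From d 195 to birth they gave 0.57, -0.27 and -1.03 in PxH and -0.23 and 0.71 in WxH, where the other array had no value. Every stage link but the first of PxH held arrays on either side of 0. The PxH over WxH arrays of DGAT2 were all below 0, at -1.13, -0.39 and -0.23 at d 60 and -1.16, -1.99 and -0.09 at birth, and the fitted ratios of -0.55 ± 0.35 and -1.11 ± 0.35 did not pass the test (adjusted p = 0.559 and 0.118).

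None of the 4 enzymes passed the test for PxH against WxH at any of the 4 stages, where 0.048% (d 60), 0.0% (d 135), 0.0% (d 195) and 0.276% (birth) of all features were called by limma. At d 135, 262 of the 16659 features had an unadjusted p under 0.05 by limma, and at d 195, 446 had. Both counts were below 0.05 of the features. No array set PxH against WxH directly at d 135 or d 195, so the ratios there came only through arrays between stages. At d 60 the arrays of SCD gave 0.39, 0.76 and 1.44 and those of ACLY 0.93, 0.34 and 0.78, so that PxH was higher on all 3 arrays of both genes. Fitted ratios were 0.86 ± 0.32 for SCD (adjusted p = 0.265) and 0.56 ± 0.14 for ACLY (adjusted p = 0.138). For ACACA the PxH over WxH arrays gave -0.05, 0.40 and 0.27 at d 60, on either side of 0. At birth they gave -0.11, -0.20 and -0.03, all below 0. At birth SCD was lower in PxH on all 3 arrays, at -0.67, -0.47 and -2.05, with a fitted ratio of -1.06 ± 0.32 (adjusted p = 0.109). Without the array at -2.05 the ratio was -0.63 (adjusted p = 0.756), and without the array at -0.67 it was -1.23 and passed (adjusted p = 0.0439). A single bull sired each d 60 group, the WxH d 135 group and the PxH d 195 group, so that breed and sire cannot be told apart there.

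The counts of called genes that follow stand beside the 48.2% of all features called from d 60 to birth on the mean of the breeds, 22.6% higher and 25.6% lower. Of 10 measured genes of fatty acid synthesis and its substrates, 5 fell from d 60 to birth on the mean of the breeds, 1 rose and 4 did not pass, with a median of -0.59. Those that fell were the pentose phosphate enzyme TKT (log2 ratio -2.03), the elongase ELOVL5 (-1.37), the malic enzyme ME3 (-1.28), the NADP-dependent isocitrate dehydrogenase IDH1 (-1.25) and the cytochrome b5 reductase CYB5R3 (-0.80). MECR, of mitochondrial fatty acid synthesis, rose by 1.12. Fatty acid synthase itself, FASN, had a ratio of 0.28 ± 0.80 (adjusted p = 0.786), an error wider than those of the 4 enzymes. Among 6 regulators, SREBF1 (-1.01), SREBF2 (-0.73), PRKAB1 (-1.30) and CEBPA (-0.63) fell and CEBPD (0.91) and DDIT4 (1.40) rose. SREBF1 encodes a transcription factor of lipogenic genes.

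In triglyceride assembly 2 of 4 measured genes rose, GPD1 by 1.92 and AGPAT5 by 1.44. PCK2 fell by 0.74, and DGAT1 had a ratio of -0.77 ± 0.55 (adjusted p = 0.259). GPD1 makes glycerol 3-phosphate and also serves the glycerophosphate shuttle of muscle fibres. Of 8 measured genes of the lipid droplet and lipolysis, lipoprotein lipase (LPL) rose by 1.16, PLIN1 fell by 0.45 and 6 did not pass. Of 14 genes of fatty acid oxidation 3 rose, among them PHYH by 2.97 and ACADVL by 1.08, and 4 fell, among them HSD17B4 (-2.43) and DECR1 (-2.12). Of 15 measured adipocyte markers 3 rose, 4 fell and 8 did not pass, with a median of 0.01. The called shares of the oxidation genes (7 of 14) and of the adipocyte markers (7 of 15) were near that of all features. The list of sterol synthesis had 2 measured genes, and neither passed. Of 5 immune cell markers 2 rose and 1 fell, and of 3 endothelium and mural cell markers 1 fell.

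In the later crossbred muscle, SCD rose and fell again in WxH and passed the test at neither step in PxH. From T1 to T2 the WxH arrays gave 1.98 and 2.15 and the PxH arrays -0.65 and -0.06. From T2 to T3 the WxH arrays gave -2.34 and -2.20 and the PxH arrays -0.27 and 0.23. The WxH arrays lay about 2 log2 units from 0 at both steps and in opposite directions, and no PxH array came near them. SCD rose 3.75-fold in WxH from T1 to T2 (log2 ratio 1.91 ± 0.19, adjusted p = 3.83e-05) and fell 5.02-fold from T2 to T3 (-2.33 ± 0.19, adjusted p = 1.64e-06), against -0.20 ± 0.19 (adjusted p = 0.602) and 0.04 ± 0.19 (adjusted p = 0.953) in PxH. Of all features 1.97% were called higher in WxH at the first step and 3.64% lower at the next, and 5.38% and 3.76% were called in PxH. The arrays of a step shared a single dye orientation within a breed, Cy3 for the later time in PxH and Cy5 in WxH, and without the arrays numbered 2 the rise in WxH was 1.62 (adjusted p = 0.0916). The differences between the breeds were -2.10 ± 0.18 from T1 to T2 (adjusted p = 1.12e-05) and 2.36 ± 0.18 from T2 to T3 (adjusted p = 2.38e-06), in comparisons that called 1.13% and 0.84% of the 17253 features tested. Between T1 and T3 no enzyme passed the test in either breed, where 0.927% of features were called in PxH and 0.151% in WxH.

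**Figure D3:**
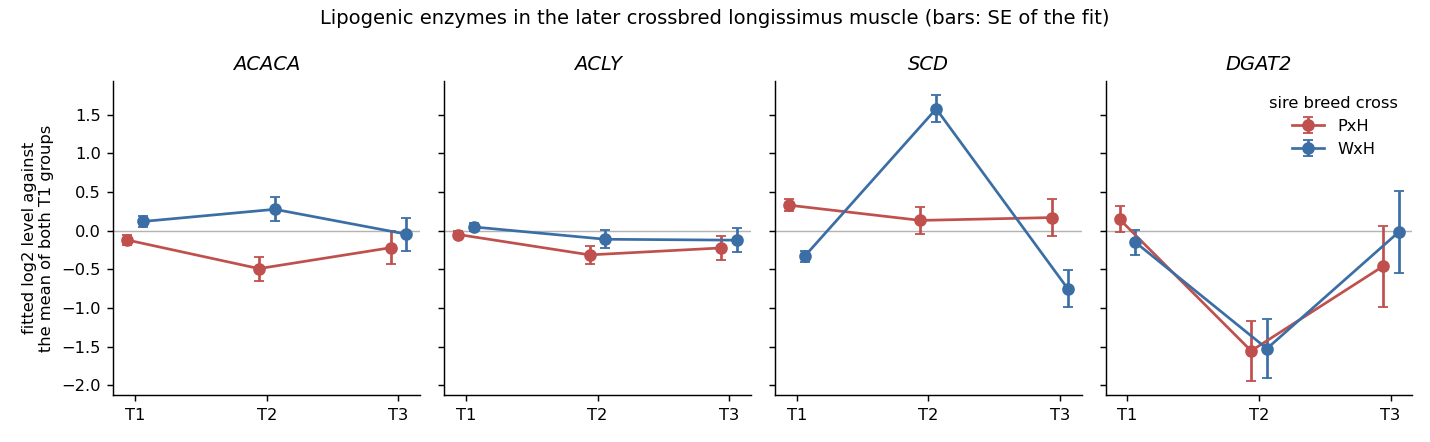
Fitted log2 level of each enzyme in later PxH and WxH muscle at T1, T2 and T3, against the mean of both T1 groups, with standard errors as bars. SCD in WxH stood at -0.33, 1.58 and -0.75 at T1, T2 and T3, against 0.33, 0.13 and 0.17 in PxH, and DGAT2 was lowest at T2 in both crosses.

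Between the breeds SCD was higher in WxH at T2 and higher in PxH at T1 and T3. At T2 the PxH over WxH arrays read -1.39, -1.64, -1.41 and -1.14 for SCD, all below 0, and SCD was 2.72-fold lower in PxH (log2 ratio -1.44 ± 0.14, adjusted p = 1.94e-05). At T1 these arrays read 0.42, 1.08, 0.35 and 0.48 and at T3 0.52, 0.64, 1.35 and 1.28, all above 0. Each set held 2 arrays of each dye orientation, and these gave the same sign. The fitted ratio was 0.66 ± 0.15 at T1 (adjusted p = 0.0494) and 0.92 ± 0.15 at T3 (adjusted p = 0.0142). The T2 difference passed in all 34 alternative settings, the T3 difference was lost in 8 of them and the T1 difference in 29. The arrays that decided the T3 call were numbers 3 (0.77 without it, adjusted p = 0.140) and 4 (0.83 without it, adjusted p = 0.0606) of PxH over WxH at T3. Of all features 0.753%, 3.28% and 0.539% were called at T1, T2 and T3.

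ACACA was the other enzyme that differed between the breeds. At T2 its PxH over WxH arrays read -0.68, -1.16, -0.49 and -0.54, all below 0, and ACACA was 1.70-fold lower in PxH (log2 ratio -0.77 ± 0.12, adjusted p = 0.00120). At T1 they read -0.13, -0.16, -0.15 and -0.40 and at T3 0.08, -0.09, -0.48 and -0.53, and neither set passed the test (adjusted p = 0.386 and 0.624). The call at T2 was lost without the arrays numbered 2 (log2 ratio -0.64, adjusted p = 0.208) and with the array number fitted as a block (-0.54). Its arrays between times were at -0.14 and -0.49 in PxH and -0.09 and 0.29 in WxH from T1 to T2, and at 0.47 and 0.38 in PxH and -0.83 and -0.12 in WxH from T2 to T3, and none of its changes over time passed the test. Over T1 to T3 the mean ratio between the breeds was -0.39 ± 0.08 for ACACA (adjusted p = 0.0155), where 4.2% of features were called. This mean includes the T2 ratio of -0.77, so it is not a result apart from the T2 call. It was not a planned comparison, it is given for ACACA only, and its dependence on the settings is not given. For ACLY the PxH over WxH arrays lay between -0.46 and 0.28 over all 3 times and none of its comparisons passed the test, with a fitted ratio at T2 of -0.20 ± 0.09 (adjusted p = 0.284). The 2 elements of ACLY correlated with r = 0.16 over the 20 crossbred arrays, against 0.98 over the fetal arrays, the lowest agreement of the 4 enzymes in either set.

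**Figure D4:**
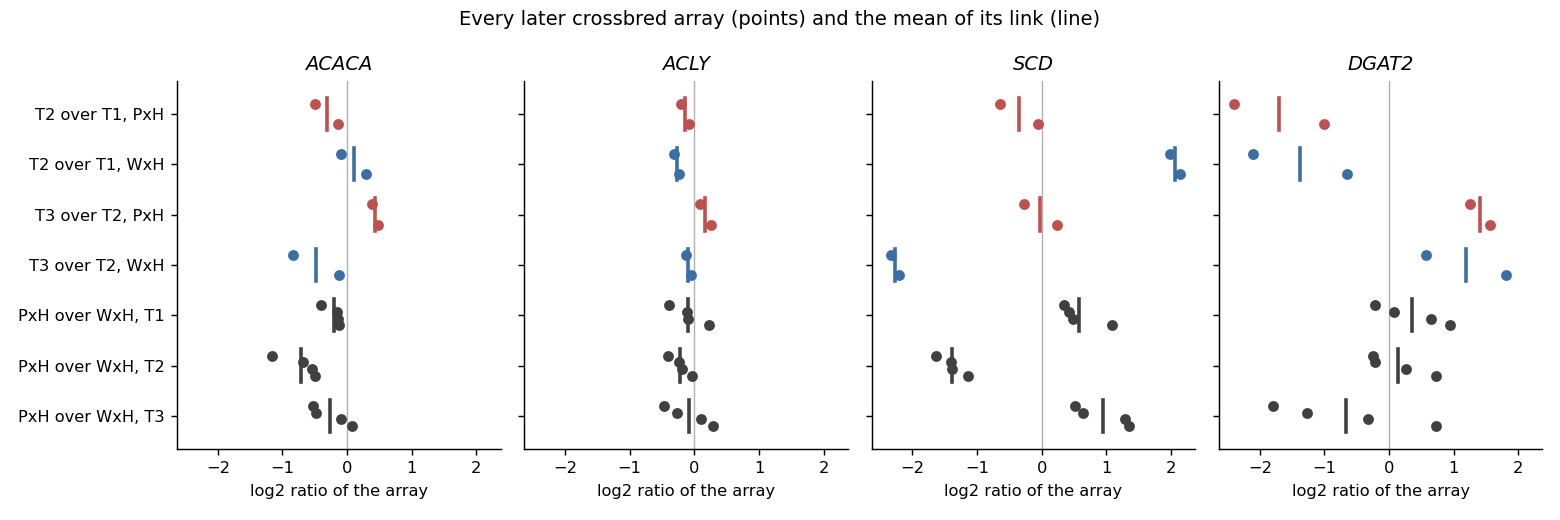
Log2 ratio of each later crossbred array for each enzyme, by link, where a point is an array, a short line the mean of a link, red PxH, blue WxH and black PxH over WxH, all on 1 horizontal scale. The WxH T2 over T1 and T3 over T2 arrays of SCD lay near 2 and -2, the 4 arrays of PxH over WxH at T2 lay between -1.64 and -1.14, and the DGAT2 arrays of T2 over T1 were below 0 in both crosses.

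DGAT2 fell to T2 and rose again to T3 on the mean of the breeds. From T1 to T2 its arrays read -2.40 and -1.01 in PxH and -2.10 and -0.65 in WxH, and from T2 to T3 they read 1.57 and 1.25 in PxH and 0.57 and 1.80 in WxH. All 4 arrays were below 0 at the first step and all 4 above it at the next. On the mean of the breeds DGAT2 fell 2.91-fold from T1 to T2 (log2 ratio -1.54 ± 0.35, adjusted p = 0.0163) and rose 2.46-fold from T2 to T3 (1.30 ± 0.35, adjusted p = 0.0274). The differences between the breeds were -0.33 ± 0.40 (adjusted p = 0.832) and -0.41 ± 0.40 (adjusted p = 0.899). Between the breeds DGAT2 scattered on either side of 0, with arrays at 0.64, -0.22, 0.94 and 0.07 at T1, 0.72, 0.27, -0.24 and -0.22 at T2, and 0.73, -0.33, -1.26 and -1.79 at T3, and no time passed the test (adjusted p = 0.689, 0.974 and 0.612). The fall to T2 did not pass without array number 1 of WxH T2 and T1 (-1.21, adjusted p = 0.180) or of PxH T2 and T1 (-1.31, adjusted p = 0.0883). It was lost in 4 of 34 alternative settings, over which the ratio ran from -2.25 to -0.83 and the adjusted p up to 0.40. The rise to T3 did not pass without array number 2 of WxH T3 and T2 (1.23, adjusted p = 0.145) or either PxH T3 and T2 array (1.06, adjusted p = 0.148, and 1.19, adjusted p = 0.137). This rise was also lost in 4 of 34 settings, with ratios from 1.06 to 1.72 and an adjusted p of up to 0.59. In these comparisons 4.06% of all features were called lower and 6.73% higher. Within a breed, the fall to T2 passed in PxH and not in WxH, and the rise to T3 passed in WxH and not in PxH. Of all features 3.43% were called lower in PxH at the first step and 6.03% higher in WxH at the next. The PxH fall was lost in 5 of 34 settings and the WxH rise in 6. The WxH fall passed in 2 of 34 settings and the PxH rise in 1.

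Of 15 measured adipocyte markers, 2 rose with SCD in WxH from T1 to T2, where 1.97% of all features were called higher. The median of the 15 markers was 0.10 and 0.03 on the 2 WxH arrays of that step. FABP4, the fatty acid binding protein of adipocytes, gave 1.18 and 1.05 on the WxH T2 over T1 arrays and -1.23, -1.37, -1.03 and -0.80 on the PxH over WxH arrays at T2. The adipokine ADIPOQ gave 0.61 and 1.16 on the former and -1.18, -1.34, -1.34 and -0.92 on the latter. Both rose in WxH from T1 to T2 and fell from T2 to T3, by 0.89 for FABP4 and by 0.68 for ADIPOQ on the log2 scale. The 2 WxH T3 over T2 arrays were far apart, at -1.29 and -0.59 for FABP4 and -1.40 and -0.33 for ADIPOQ. The median of the 15 markers on them was -0.21 and -0.25, and 3.64% of all features were called lower at this step. At T3 FABP4 and ADIPOQ did not go with SCD. The PxH over WxH arrays there gave -0.13, -0.21, -0.84 and -0.51 for FABP4 and -0.02, -0.09, -1.18 and -0.72 for ADIPOQ. SCD was above 0 on all 4 of those arrays. Of 15 measured adipocyte markers, FABP4, ADIPOQ and PLIN1 were called lower in PxH at T2, the lipase LIPE was called higher (0.42) and 11 did not pass, where 2.36% of all features were called lower and 0.922% higher. The median of the 15 markers lay between -0.13 and -0.02 on the 4 PxH over WxH arrays at T2. Of the 10 genes of fatty acid synthesis and its substrates, TKT alone was called between the breeds at T2, lower in PxH (-0.51, adjusted p = 0.00713). None of the 6 regulators was called, and SREBF1 had a ratio of -0.17 ± 0.09 (adjusted p = 0.360).

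The matrix markers differed in the same direction at T2. COL1A1 (-1.21), COL1A2 (-1.01), FN1 (-0.85) and SPARC (-0.64) were lower in PxH, as 4 of 9 measured matrix markers, and 0 of 15 muscle fibre markers were called by limma, against 3.28% of all features. The part of adipocyte or connective tissue content in the SCD and ACACA differences was not tested.

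In the Belmont Red pools SCD was the 1 enzyme of the 4 that passed the test for diet, at T2. Fitted pool levels were set against the mean of all 12 pools. Those of SCD on the low diet were -0.35 and -0.45 at T1, 1.34 and 1.26 at T2 and 0.50 and -0.26 at T3. On the growth diet they were -0.47 and -0.11 at T1, -0.62 and -0.09 at T2 and -0.48 and -0.26 at T3. The low-diet pools at T2 stood above all other pools, and they enter the mean that sets 0. The growth-diet pools lay below that mean at all 3 times, as did the low-diet pools at T1. At T2 SCD was 3.14-fold lower on the growth diet (log2 ratio -1.65 ± 0.26, adjusted p = 0.00441), against 0.11 ± 0.26 at T1 (adjusted p = 1.00) and -0.49 ± 0.26 at T3 (adjusted p = 0.721). The diet effect at T2 differed from that at T1 by -1.76 ± 0.37 (adjusted p = 0.0422, and 3.86% of features called) and from that at T3 by -1.16 ± 0.37 (adjusted p = 0.0653, and 14.2% called). On the low diet SCD rose 3.24-fold from T1 to T2 (adjusted p = 0.00725) and fell 2.25-fold from T2 to T3 (adjusted p = 0.0188), comparisons that called 18.0% and 18.3% of features. With the arrays scaled to a common spread none of these SCD results passed the test (adjusted p = 0.0691 for diet at T2 and 0.119 and 0.302 for the low diet over time).

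Of the 16542 features tested, 24.1% were called for diet at T2 and 0.0% at T1 and T3 (258 and 1108 features of the Belmont Red fit at an unadjusted p under 0.05). The diet ratio at T2 was 0.14 ± 0.19 for ACACA, -0.02 ± 0.13 for ACLY and -0.13 ± 0.33 for DGAT2 (adjusted p = 0.622, 0.903 and 0.803). FABP4 and ADIPOQ did not differ past the threshold at T2, and on the 4 arrays between the T2 diets FABP4 read 0.11 to 0.60 and ADIPOQ 0.18 to 0.44. The fibre and matrix markers stood higher on the growth diet at T2, with 10 of 15 and 3 of 9 called and medians of 1.17 and 1.39. Their part in the SCD difference was not tested.

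**Figure D5:**
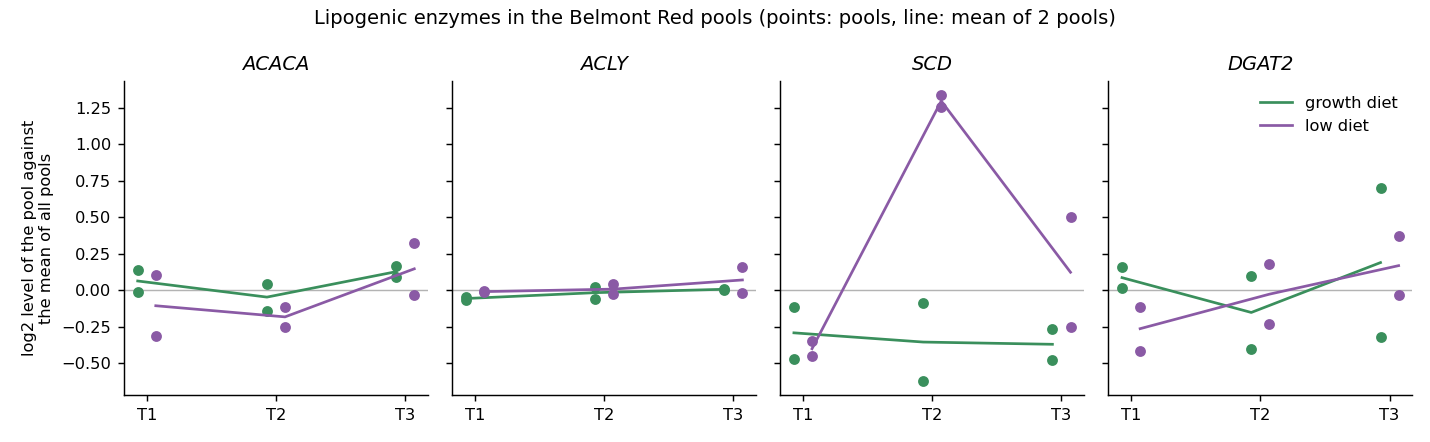
Fitted log2 level of each enzyme in the 12 Belmont Red pools at T1, T2 and T3, where a point is a pool and a line joins the means of the 2 pools of a diet. Levels are against the mean of all 12 pools. The low-diet SCD pools at T2, at 1.34 and 1.26, lay above all others, and all pools of ACACA, ACLY and DGAT2 lay between -0.41 and 0.70.

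Among themselves, ACACA and ACLY had the most similar patterns. Over the 25 fetal arrays, which share groups and a common change with stage, their log2 ratios correlated with r = 0.90, and over the 20 later arrays with r = 0.66. SCD correlated with ACACA at 0.55 and with ACLY at 0.62 over the fetal arrays, and with ACACA at 0.41 and ACLY at -0.07 over the later arrays. DGAT2 lay between -0.19 and -0.01 with the other members over the fetal arrays and at -0.46 with SCD, 0.20 with ACACA and 0.49 with ACLY over the later arrays. These values describe arrays that share animals and are not independent.

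Among 974 named genes, those with the patterns most like each enzyme over the fetal arrays were as follows. For ACACA they were FN1 (r = 0.94), NOTCH2 (0.93) and PHLDB2 (0.92), and over the later arrays these had r = 0.73, 0.19 and -0.22. For ACLY they were PHLDB2 (0.93), WSB1 (0.92) and NOTCH2 (0.91), with r = -0.12, 0.54 and 0.56 over the later arrays. For SCD they were MEF2C, RTN4 and CLTC (0.84, 0.84 and 0.82), of which RTN4 also had a high likeness over the later arrays (0.94, against 0.27 for MEF2C and 0.56 for CLTC). For DGAT2 they were EHD2, CAPNS1 and PPP1CA (0.65, 0.63 and 0.63 over the arrays with a value), with r = 0.88, 0.79 and 0.49 over the later arrays.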

How the data were processed

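The authors deposited a table of log2 ratios of Cy5 over Cy3 for a bovine cDNA array, per the labels (log base taken from the values). The study's methods give GenePix scanning, spot editing and background correction for the fetal arrays, and which of these steps the deposited ratios went through, and how they were normalized, is not given in the sources used here. The table held 70 arrays of 21168 elements, and the other 77 arrays of the series were not used. Ratios at the upper limit of 16.61 were treated as missing, the median of each array was subtracted (fetal -0.482 to 0.465, crossbred -0.316 to 0.141, Belmont Red -0.531 to 0.507), and elements of a symbol were averaged. A feature needed a value on at least 0.8 of the arrays. Stage, breed and dye effects were fitted with limma 3.58.1 in R 4.3.3, with pools as samples in Belmont Red, and residual degrees of freedom were 17 (fetal), 14 (crossbred) and 6 (Belmont Red). Figures were drawn with matplotlib 3.10.9. The number of arrays limits the precision.

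Symbols came from the platform annotation, of which 4472 of the 4490 elements with a single symbol matched the RefSeq gene table. The text names the 4 enzymes, list genes past the threshold in a comparison the enzymes share, and the 3 genes most like each enzyme; FASN, DGAT1 and SREBF1 at T2 were named after their values were seen. The enzymes, pathway lists and marker lists were chosen with earlier results of these data known. The scripts were tested on simulated data. The main fits did not hold the array number as a block. In fetal arrays the median correlation of deviations was -0.009 for the same number and -0.00015 for different numbers. In crossbred arrays it was higher for the same number, at 0.18 against 0.046. There 28 of 48 pairs of the same number were over 0.1, against 55 of 120 pairs of different numbers. With the block, the PxH over WxH calls of ACACA at T2 and of SCD at T1 and T3 were lost. Whether crossbred arrays of the same number share animals was not tested. Each alternative in normalization, filtering, weighting and samples is given in the closing section. No genome build was named, so no coordinates are given.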

Additional observations from a re-analysis of the deposited data

Results flagged for a closer look

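The change of SCD from d 60 to birth differed between the breeds by -1.92 on the log2 scale, PxH minus WxH, and that of ACLY by -0.58. In the later crossbred muscle the SCD change differed by -2.10 from T1 to T2 and by 2.36 from T2 to T3, and the WxH T2 group enters both values. In Belmont Red the effect of diet on SCD at T2 differed from that at T1 by -1.76.

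Of 16 links tested for an array far from the others, 2 had one: SCD on a WxH d 195 over d 135 array (-2.02) and ACACA on a PxH over WxH array at T1 (-0.40). Only links of 4 arrays were tested, counted for each enzyme. Links of fewer arrays, among them WxH birth over d 195 with its SCD array at 1.17, were not tested. Chance alone marks about 1 in 20 links.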

How the results depend on the processing

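Of 203 counts of enzymes called that were recomputed under another setting, 184 were within 1.5 times the main count, 4 were higher and 15 were lower, and no enzyme's ratio changed sign in a called comparison. PxH against WxH at d 60 had 0 enzymes called in the main fit and 2 (SCD and ACLY) with arrays scaled to a common spread or weighted by quality. The difference between breeds from d 60 to birth had 2, and 1 (SCD) without centring, with every element as a feature, without the dye effect or with the array number as a block. PxH against WxH at T1 had 1 (SCD), and 0 without centring, with a common spread, with the limit kept, with values on at least 0.5 of the arrays, with every element as a feature, with array weights, without the dye effect or with the block. At T2 the block lowered the count from 2 to 1 (ACACA -0.54, adjusted p = 0.113), and at T3 the block or a common spread lowered it from 1 to 0 (SCD 0.73, adjusted p = 0.134 with the block). The mean diet effect in Belmont Red had 0, and 1 (SCD) without centring (-0.80, adjusted p = 0.0397) or with each array as a sample (adjusted p = 0.000107). Leaving out single arrays or array numbers gave 0 to 1 enzymes for PxH against WxH at T1, at T3 and at birth, 1 to 2 at T2, 0 to 2 for T2 over T1 and for T3 over T2 on the mean of the breeds, 0 to 2 for the difference from d 60 to birth, 1 to 3 for d 195 over d 135, and 2 to 3 for birth over d 195 and for birth over d 60 in WxH. Without centring, the median of all features moved to -0.22 for birth over d 60 on the mean of the fetal breeds and to -0.30 for diet at T2 in Belmont Red. The falls of ACACA (-3.14 to -2.48) and ACLY (-2.56 to -2.20) from d 60 to birth passed in all 39 settings, as did the SCD difference at T2 in all 34 (-1.65 to -1.37). Precision was limited by 2 to 4 arrays a link.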
